A study of Mus musculus with 2 samples.

Results

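The class II antigen presentation genes described here are Cd74, H2-Aa, H2-Ab1, H2-Eb1, H2-DMa, H2-DMb1, H2-DMb2, H2-Oa and Ciita, which are 9 of the 31053 genes counted. They were taken by symbol, and each symbol had 1 row in each of the 2 libraries. The cells came from the brain cortex of male 5xFAD hemizygous mice, a transgenic line that deposits amyloid, on the C57BL/6J strain, and were 5.5 months old when collected. In the photoconversion library the mice had received 5 uL of Visudyne, a photosensitiser, into the cisterna magna at 4 months, followed by 5 steps of 689 nm light through the skull to ablate meningeal lymphatic vessels. In the control library they had received 5 uL of Visudyne alone. In both groups the treatment was given again after 3 weeks, and tissue was taken after a further 3 weeks. All mice of both groups carried the amyloid transgenes, all received Visudyne, and neither library held light without Visudyne, non-transgenic or untreated mice. Each library pooled cells of 3 mice that could not be told apart, sorted as SYTOX-, Ly6G-, CD45+ and CD11b+ singlets. That gate also admits border macrophages, monocytes and some dendritic cells. The comparison addresses what class II expression looked like in cortical microglia with and without the ablation.

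MHC class II molecules are heterodimers of an alpha and a beta chain that carry peptides from the endosome to the cell surface, where CD4+ T cells read them. H2-Aa and H2-Ab1 encode the chains of mouse I-A, and H2-Eb1 encodes the beta chain of I-E. Cd74, the invariant chain, escorts new heterodimers to the endosome and fills their groove. H2-DM, made of H2-DMa with a beta chain from H2-DMb1 or H2-DMb2, then exchanges the remaining invariant chain fragment for peptide, and H2-O, whose alpha chain is H2-Oa, restrains H2-DM. Ciita is the transactivator that switches these genes on. In healthy brain few microglia carry class II, and near amyloid plaques it appears in a subset of the activated ones.

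All 6 members with an entry among the RefSeq promoter windows of GRCm38.p6 were searched for letters of the class II promoter module, the X and Y boxes at which the RFX and NF-Y complexes assemble and recruit the transactivator. The 5 members that carried the core letters of the Y box, TGATTGG, are shown because a shared promoter module is what could be compared between chain and loading genes. Each stretch is 70 bases on the strand of the gene, 5′ to 3′, and capitals mark the Y box core and, before it, the X box letters AACNGATG or the element TGACGTCA.

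H2-Aa (chr17:34287854-34287923, minus strand): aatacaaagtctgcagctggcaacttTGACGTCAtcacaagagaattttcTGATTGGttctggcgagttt
H2-Eb1 (chr17:34305756-34305825, plus strand): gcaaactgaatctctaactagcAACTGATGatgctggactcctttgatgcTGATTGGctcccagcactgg
H2-DMb1 (chr17:34153078-34153147, plus strand): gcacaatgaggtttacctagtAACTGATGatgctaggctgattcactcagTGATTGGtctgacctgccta
H2-DMb2 (chr17:34145107-34145176, plus strand): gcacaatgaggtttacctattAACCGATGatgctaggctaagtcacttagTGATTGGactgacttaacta
H2-Oa (chr17:34092284-34092353, plus strand): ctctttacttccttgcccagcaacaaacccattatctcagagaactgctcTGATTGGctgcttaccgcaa

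The chain genes and loading genes shared the module in part. H2-Eb1, H2-DMb1 and H2-DMb2 held the X letters 20, 21 and 21 bases before the Y core. H2-Aa held TGACGTCA, a cyclic AMP response element, 16 bases before it, and H2-Oa held the Y core without either. The Y core began 50 bases before the annotated start in H2-Aa, 61 in H2-Eb1, 63 in H2-DMb1, 92 in H2-DMb2 and 45 in H2-Oa. Neither of the 2 windows of H2-DMa held these letters. The letters were chosen after the windows had been read. On both strands of the 250 bases before the start, the Y core occurred in 7.23% of 32851 windows, the X letters in 1.98% and TGACGTCA in 1.55%. X letters 15 to 25 bases before a Y core on the gene's strand occurred in 5 windows, those of BC051142, H2-DMb1, H2-DMb2, H2-Eb1 and H2-Eb2. A match is a run of letters and not a measured binding site.

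The 9 genes lie on chromosome 17 except Cd74, on chromosome 18 at 60803848 to 60812652, and Ciita, on chromosome 16 at 10480059 to 10528418. Within the class II region of chromosome 17 the order on GRCm38 is H2-Oa (34092340 to 34095234), H2-DMa (34119541 to 34139101), H2-DMb2 (34143307 to 34151555), H2-DMb1 (34153072 to 34160230), H2-Ab1 (34257689 to 34269419), H2-Aa (34282744 to 34287823) and H2-Eb1 (34305867 to 34316674). H2-DMb1 and H2-DMb2 are closely related copies, and 30.3% of the 30-base stretches in H2-DMb2 transcripts also occur in H2-DMb1, so the split of reads between them is uncertain. Antisense genes overlap H2-Eb1 (Gm20513) and H2-Oa (BC051537), Brd2 overlaps H2-DMa and Dexi overlaps Ciita on the opposite strand. On the same strand, CR974462.3 overlaps H2-DMa and the microRNA gene Mir5107 overlaps Cd74. Whether the counting used strand is not given in the sources used here.

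A barcode counted as a cell when 200 or more genes were detected in it and mitochondrial genes gave no more than 10% of its UMIs (counted molecules). The rule kept 317 of 2000 barcodes in the photoconversion library and 555 of 2000 in the control library, with medians of 3410 and 2670 UMIs and of 1120 and 922 genes per cell. The libraries shared 27 barcodes, none of them kept in both. At least 3 UMIs of 10 microglia markers were present in 298 of 317 photoconversion cells and in 535 of 555 control cells, which fits the labelled cell type. Each group is 1 library of pooled mice, so the spread between mice could not be measured and no test was made. Every interval below is a 95% interval for counting error only. A difference between summed libraries cannot separate more class II cells from more class II RNA per cell, for which the values per cell are given further on.

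The invariant chain and the 3 class II chains were each about 2.5 to 2.9 times as abundant in the photoconversion library as in the control library, while H2-DMa and H2-DMb1 stood at nearly the same level in both. Cd74 summed to 4498 UMIs in photoconversion cells, or 2477 CPM (counts scaled to a total of 1000000 over the kept cells), and to 2066 UMIs or 853 CPM in control cells, a ratio of 2.90 (2.76 to 3.06). H2-Aa was at 768 CPM in photoconversion cells and 301 CPM in control cells (ratio 2.55, 2.33 to 2.79). H2-Ab1 was at 775 CPM in photoconversion cells and 314 CPM in control cells (ratio 2.47, 2.26 to 2.70). Summed over all kept cells the intervals of H2-Aa, H2-Ab1 and H2-Eb1 overlapped, which did not hold without the richest cells (values further on). H2-Eb1 was at 493 CPM in photoconversion cells and 195 CPM in control cells (ratio 2.53, 2.26 to 2.84).

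The loading genes behaved otherwise. H2-DMa, the alpha chain of the exchange factor, was at 421 CPM in photoconversion cells and 404 CPM in control cells (ratio 1.04, 0.948 to 1.15). H2-DMb1, a beta chain that pairs with it, was at 189 CPM in photoconversion cells and 175 CPM in control cells (ratio 1.08, 0.935 to 1.25). Both intervals include 1 and lie wholly below those of Cd74 and the 3 chains. H2-Oa was at 145 CPM in photoconversion cells and 109 CPM in control cells (ratio 1.33, 1.12 to 1.58). That order did not hold when every cell was given equal weight, where the ratio of H2-Oa was 0.914. H2-DMb2 had 32 UMIs in 25 photoconversion cells and 16 UMIs in 14 control cells (ratio 2.67, 1.42 to 5.21), but 0.995 with cells weighed equally. Ciita had 6 UMIs in 3 photoconversion cells and 1 UMI in 1 control cell, a ratio of 8.004 with an interval of 0.971 to 368. At this depth a difference in the transactivator was not detectable.

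**Figure D1:**
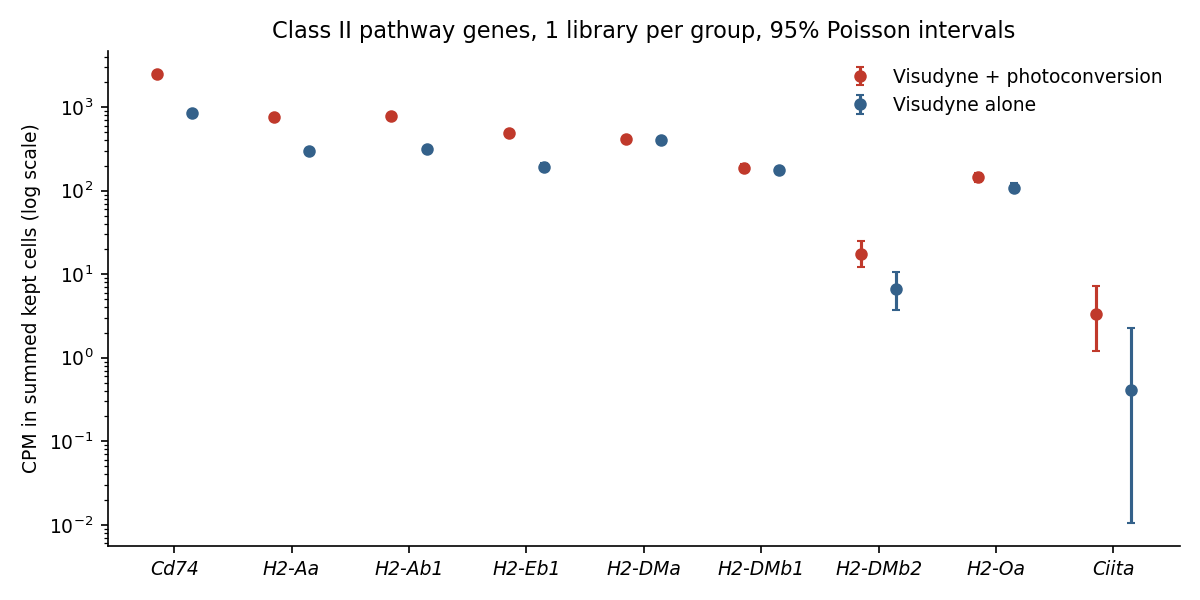
CPM of each member (log axis) summed over the 317 photoconversion cells (red, left of each pair) and the 555 control cells (blue), with 95% Poisson intervals, many of which are narrower than the points. Cd74 and the 3 chains are separated between the libraries and H2-DMa and H2-DMb1 are not. UMIs are not scaled to gene length, so heights are to be compared within a gene.

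With 20 UMIs over both libraries as the minimum, 8 members were measured and 5 of them (Cd74, H2-Aa, H2-Ab1, H2-Eb1 and H2-DMb2) had a ratio of at least 1.5, against 6.18% of the 8823 genes measured. None had a ratio of 1/1.5 or less, against 9.84% of those genes. The median log2 ratio was 1.32 over the 8 members and -0.06 over all 8823 genes. The split of all genes past the fold, 545 up and 868 down, was 697 and 687 with median-of-ratios scaling and 700 and 686 with TMM, and the same number of members, 5, passed with either. With a minimum of 100 UMIs, 4 members passed 1.5, against 1.62% of 4009 genes.

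Genes around the class II pathway were closer to equal between the libraries. Of 7 components of the promoter complexes, 1 passed a ratio of 1.5 and none passed 1/1.5: the NF-Y subunit Nfyb, with 31 UMIs in photoconversion cells and 22 in control cells (ratio 1.88, 1.05 to 3.41). The RFX subunits Rfx5, Rfxap and Rfxank had ratios of 1.16, 1.04 and 0.947. Of 6 genes that carry interferon gamma signalling to Ciita, 1 passed 1.5, the kinase Jak2, with 23 UMIs in photoconversion cells and 18 in control cells (ratio 1.70, 0.880 to 3.35). The receptor chain Ifngr1 stood at 0.734 (0.661 to 0.814). None of 6 endosomal proteases passed either bound: Ctss, which trims the invariant chain, stood at 1.03 (1.01 to 1.05) and the asparagine endopeptidase Lgmn at 0.781 (0.751 to 0.811). None of 4 measured costimulation and adhesion genes did, with Cd86 at 0.871 (0.743 to 1.02). Median-of-ratios and TMM scaling, which raise every log2 ratio by 0.07, put 2 of the promoter factors and 2 of interferon gamma signalling past 1.5. The median log2 ratio was 0.22 for the promoter factors, 0.28 for interferon gamma signalling, -0.08 for the proteases and 0.06 for costimulation.

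Class I genes, whose products present peptides from the cytosol, served as a comparison. None of 6 passed 1.5, and their median log2 ratio was 0.21. The peptide transporter subunit Tap1 lay just below, at 1.49 (1.10 to 2.01), and passed with median-of-ratios or TMM scaling. Ratios were 1.41 (1.35 to 1.47) for the heavy chain H2-D1 and 1.13 (1.11 to 1.15) for the light chain B2m. The intervals of H2-D1 and of Cd74 and the 3 chains did not overlap. H2-Ob, the beta chain of H2-O, had 104 UMIs in photoconversion cells and 122 in control cells (ratio 1.14, 0.867 to 1.49), and H2-Eb2 had no UMI in either library.

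Class II chain UMIs came from few cells. The summed count of H2-Aa, H2-Ab1 and H2-Eb1 reached 100 or more in 12 of 317 photoconversion cells (3.79%, 1.97 to 6.52%) and in 6 of 555 control cells (1.08%, 0.398 to 2.34%). Those cells held 2689 of 3697 chain UMIs in the photoconversion library (72.7%) and 1480 of 1963 in the control library (75.4%). A further 25 photoconversion cells (7.89%) and 11 control cells (1.98%) had 10 to 99 chain UMIs. No chain UMI was seen in 147 photoconversion cells (46.4%) and 395 control cells (71.2%).

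The same held per unit of depth. Scaled to UMIs per 10000 of the cell, the chain sum had a median of 0.95 in photoconversion cells and 0 in control cells, a 90th percentile of 30.2 and 5.94, and a maximum of 624 and 761. The photoconversion library was therefore higher at the median and at the 90th percentile, while the single highest cell was in the control library. The sum of the 4 loading genes was nearly even between libraries, with medians of 5.79 in photoconversion cells and 4.77 in control cells and 90th percentiles of 17.2 and 16.4.

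The 10 richest cells held 64.6% of H2-Aa UMIs in the photoconversion library and 89.0% in the control library. For H2-Eb1 they held 70.8% in the photoconversion library and 87.7% in the control library, and for Cd74 57.4% and 65.3%. Among the 1919 photoconversion and 2601 control genes with at least 100 UMIs, H2-Eb1 ranked 8 and 10 for this concentration, H2-Aa 12 and 9, and Cd74 16 and 20. H2-DMa was among the evenly spread genes, with 19.2% of its UMIs in 10 photoconversion cells (rank 1447) and 16.5% in 10 control cells (rank 1743). For H2-DMb1 the 10 richest cells held 23.3% in the photoconversion library and 13.2% in the control library. The medians over all such genes were 23.3% in the photoconversion library and 18.9% in the control library. H2-Oa lay between, at 36.9% in the photoconversion library and 22.3% in the control library.

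**Figure D2:**
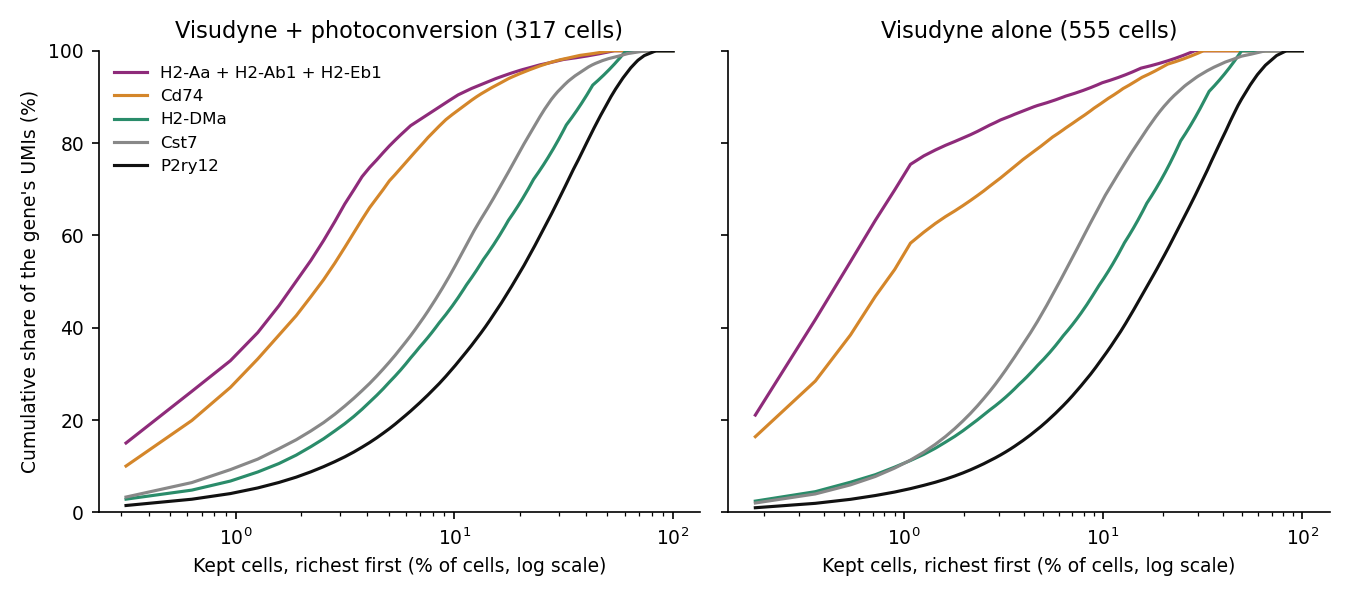
Cumulative share of UMIs (y axis, %) against kept cells ordered from the richest down for each gene (x axis, % of cells, log scale), in the photoconversion library (left) and the control library (right). The chain sum and Cd74 reach most of their total within a few percent of cells, while H2-DMa follows a course close to those of Cst7 and P2ry12.

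Because so much rested on few cells, the ratios were recomputed without them. Without the 10 richest cells of each library for the gene concerned, the ratio was 8.56 (6.75 to 11.0) for H2-Aa, 6.28 (4.71 to 8.49) for H2-Eb1, 3.71 (3.40 to 4.05) for Cd74 and 2.74 (2.34 to 3.22) for H2-Ab1. This cut was unlike in the libraries. At least 10 UMIs of H2-Aa were in 23 photoconversion and 7 control cells, and of H2-Eb1 in 18 and 7. For both genes it thus took out every such control cell but left such photoconversion cells in, which raises these ratios. Without every cell of 100 or more chain UMIs it was 5.20 (4.21 to 6.47) for H2-Aa, 3.48 (2.69 to 4.52) for H2-Eb1, 2.78 (2.56 to 3.03) for Cd74 and 2.02 (1.73 to 2.36) for H2-Ab1. Outside the rich cells H2-Aa and H2-Eb1 therefore differed more between the libraries than H2-Ab1, whose interval lay apart from both. The ratio of the summed chains and Cd74, 2.71 (2.61 to 2.82) with all cells, was 3.88 without the 10 richest cells and 2.87 without every cell of 100 or more chain UMIs. The higher chain level of the photoconversion library was thus also present outside its richest cells.

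Cells differed in depth, so detection was also read after drawing 1000 UMIs at random from every cell that had them, which left 272 photoconversion and 439 control cells. A UMI of any of the 3 chains was present in 25.7% of photoconversion cells (20.6 to 31.4%) and 12.5% of control cells (9.58 to 16.0%), against 53.6% and 28.8% without thinning. Over 20 draws of the thinning the means were 27.9% in photoconversion cells and 12.8% in control cells. H2-Aa was detected in 16.5% of photoconversion cells (12.3 to 21.5%) and 4.10% of control cells (2.45 to 6.40%), and H2-Eb1 in 11.8% (8.19 to 16.2%) and 2.96% (1.59 to 5.01%). For both genes the intervals of the libraries were apart. H2-Ab1 was detected in 16.9% of photoconversion cells (12.7 to 21.9%) and 10.3% of control cells (7.58 to 13.5%). These intervals overlapped, but the draw was the lowest of the 20 for photoconversion cells. The means over the draws were 18.5% (draws from 16.9 to 20.96%) in photoconversion cells and 9.09% (7.74 to 10.7%) in control cells, and with another draw the intervals were apart, at 13.6 to 23.1% and 5.62 to 10.9%.

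Cd74 was detected in 32.4% of photoconversion cells (26.8 to 38.3%) and 19.1% of control cells (15.6 to 23.1%). H2-DMa was detected in 33.5% of photoconversion cells (27.9 to 39.4%) and 27.8% of control cells (23.6 to 32.2%), and over 20 draws the means were 30.3% and 28.3%. The corresponding means for H2-DMb1 were 17.004% in photoconversion cells and 17.3% in control cells, and for H2-Oa 9.91% and 9.73%. At equal depth the share of cells with a loading gene was therefore nearly the same in both libraries. Ciita was in none of the 272 photoconversion cells and none of the 439 control cells, which by 3 counts of the total allows shares of up to 1.10% and 0.683% of cells with a UMI.

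Free RNA was read from cells of another type. In kept cells whose endothelial or mural markers exceeded their microglia markers, no chain UMI was seen in 6 photoconversion cells (median 2025 UMIs) or in 7 control cells (median 2307 UMIs), and Cd74 had 1 UMI and 0. With 6 and 7 cells the upper limits of the exact intervals were 45.9% and 41.0%. Where astrocyte markers exceeded microglia markers, H2-Ab1 had a UMI in 2 of 8 photoconversion cells (25%, 3.19 to 65.1%, median 1106 UMIs) and in 2 of 5 control cells (40%, 5.27 to 85.3%, median 1434 UMIs). Cd74 had a UMI in 2 of these 8 photoconversion cells (25%, 3.19 to 65.1%) and in 1 of these 5 control cells (20%, 0.505 to 71.6%). H2-Eb1 had a UMI in 0 and 1 of them, and H2-Aa and H2-DMa in none. The shares of all kept cells with a UMI, 51.7% in the photoconversion library and 31.9% in the control library for Cd74 and 40.4% and 23.4% for H2-Ab1, lie within those wide intervals, as does the 9.73% for H2-Eb1 in the control library. Where no UMI was seen, the upper limits for H2-Aa were 36.9% in the photoconversion and 52.2% in the control library. Its shares of all kept cells, 30.6% and 11.2%, lie below them. For H2-Eb1 in the photoconversion library the limit was 36.9% and the share 23.7%. With so few cells, detection of Cd74 and of each of the 3 chains by single UMIs could thus not be told apart from free RNA in either library. This touches the median chain level, the ratios outside the rich cells and the detection shares given above. It also touches the co-detection values that follow.

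Chains were read in the same cells as the invariant chain. At 1000 UMIs, 88 photoconversion and 84 control cells had a Cd74 UMI. Of these, 60.2% (49.2 to 70.5%) of photoconversion cells and 35.7% (25.6 to 46.9%) of control cells also had a chain UMI. Among cells without Cd74 the shares were 9.24% (5.47 to 14.4%) in the photoconversion library and 7.04% (4.61 to 10.2%) in the control library. H2-Aa was present in 43.2% of Cd74-positive and 3.80% of Cd74-negative photoconversion cells, and in 16.7% and 1.13% of the corresponding control cells.

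The link to the loading genes was looser. H2-DMa was present in 40.9% (30.5 to 51.9%) of Cd74-positive and 29.9% (23.4 to 37.1%) of Cd74-negative photoconversion cells, and in 34.5% (24.5 to 45.7%) and 26.2% (21.7 to 31.1%) of the corresponding control cells. H2-DMb1 was present in 25% and 17.4% of these photoconversion cells and in 20.2% and 16.3% of the control cells. H2-Oa was present in 14.8% and 7.07% of these photoconversion cells and in 21.4% and 11.5% of the control cells. In this draw all 3 genes were seen more often with Cd74 in both libraries, but each pair of intervals overlapped. Over 20 draws H2-DMa averaged 35.4% with and 27.9% without Cd74 in photoconversion cells, and 30.5% and 27.8% in control cells. H2-DMb1 averaged 20.2% and 15.5% in photoconversion cells, and 19.1% and 16.95% in control cells. H2-Oa averaged 13.7% and 8.08% in photoconversion cells, and 13.7% and 8.84% in control cells. The draw used was the highest of the 20 for H2-Oa in control cells, both with and without Cd74. It was also the highest for H2-DMb1 in Cd74-positive photoconversion cells. Without thinning the intervals were apart for all 3 genes, with H2-DMa in 73.8% and 47.1% of photoconversion cells and 69.5% and 40.2% of control cells. Depth differs between cells there, and its part was not tested.

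The loading genes were also read against the chains. In the draw used, H2-DMa was in 51.4% (39.2 to 63.6%) of photoconversion cells with a chain UMI and 27.2% (21.2 to 33.9%) of those without, with intervals apart, and in 30.9% (19.1 to 44.8%) and 27.3% (22.9 to 32.1%) of control cells. That draw was the highest of 20 for photoconversion cells with a chain UMI. Over the draws H2-DMa averaged 40.3% with and 26.5% without a chain UMI in photoconversion cells, and 37.0% and 27.0% in control cells. It was higher with a chain UMI in 20 of 20 draws in photoconversion cells and in 19 of 20 in control cells. The draws thin the same cells again, so these counts cover the thinning only and not the spread between cells or mice. In the draw used, the intervals of the control cells overlapped. For the partners H2-DMa and H2-DMb1, H2-DMb1 was at 1000 UMIs in 22.0% of photoconversion cells with H2-DMa and 18.8% without it, and in 23.8% and 14.5% of control cells. Without thinning it was in 60.1% (52.8 to 67.1%) and 23.4% (16.3 to 31.8%) of photoconversion cells, and in 56.7% (50.6 to 62.7%) and 27.9% (22.7 to 33.5%) of control cells, so the link between them depended on the depth at which it was read.

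**Figure D3:**
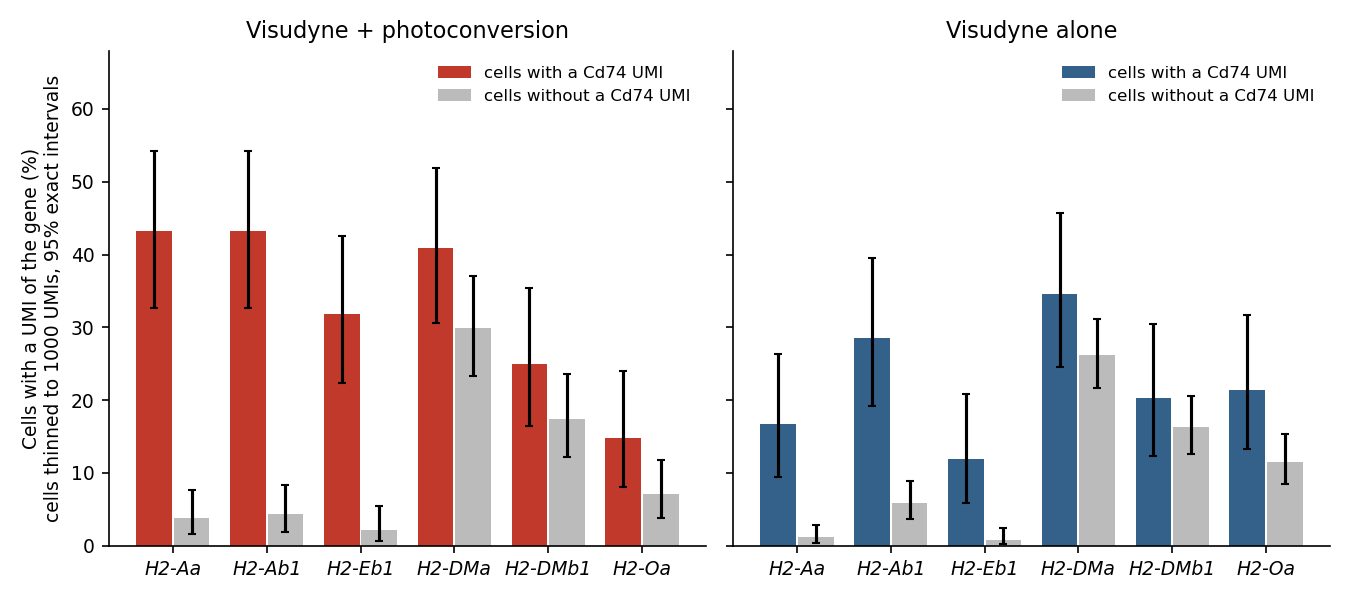
Share of cells (y axis, %) with a UMI of each gene among cells with (coloured) and without (grey) a Cd74 UMI, after thinning to 1000 UMIs, in the photoconversion library (left, 88 and 184 cells) and the control library (right, 84 and 355 cells). Bars start at 0 and carry 95% exact intervals. The bars stand apart for H2-Aa, H2-Ab1 and H2-Eb1 and overlap for H2-DMa, H2-DMb1 and H2-Oa.

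Across cells, which share a library and the sparseness of counts, Spearman's rho between Cd74 and the chain sum was 0.66 over 272 photoconversion cells and 0.37 over 439 control cells. Between H2-Aa and H2-Eb1 it was 0.56 in photoconversion cells and 0.52 in control cells, and between Cd74 and H2-DMa 0.13 and 0.09. Detection of the chains in pairs was read in the same draw. H2-Aa was present in 60.9% (45.4 to 74.9%) of photoconversion cells with H2-Ab1 but in 24.4% (12.9 to 39.5%) of such control cells, while H2-Ab1 was present in 62.2% and 61.1% of cells with H2-Aa. Over 20 draws the means were 53.2% and 27.3% for H2-Aa with H2-Ab1, and 59.9% and 52.9% for H2-Ab1 with H2-Aa. H2-Aa was also detected in more photoconversion than control cells, 16.5% against 4.10%. Whether pairing differed beyond that was not tested.

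The makeup of the chain UMIs was read at full depth. In cells with 1 to 9 chain UMIs, H2-Ab1 made up 48.9% (43.2 to 54.6%) of them in the photoconversion library and 62.9% (57.1 to 68.5%) in the control library. In cells with at least 100 chain UMIs its share was 37.5% (35.7 to 39.4%) in the photoconversion library and 32.2% (29.8 to 34.6%) in the control library. H2-Aa made up 32.5% of chain UMIs in low photoconversion cells and 21.1% in low control cells, and 36.9% and 41.8% in the cells above 100. Between these, in cells with 10 to 99 chain UMIs, H2-Ab1 made up 35.3% (31.7 to 39.0%) in the photoconversion library and 52.9% (45.5 to 60.2%) in the control library, and H2-Aa 43.3% and 26.5%. The cells with 1 to 9 chain UMIs had more H2-Ab1 relative to H2-Aa than the rich cells in both libraries, but in the photoconversion library the makeup did not run evenly with chain level. Cd74 UMIs numbered 1.06 per chain UMI in the 12 rich photoconversion cells and 0.814 in the 6 rich control cells, and 1.48 and 1.64 in cells with 1 to 9 chain UMIs.

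The loading genes were also read by the number of chain UMIs in a cell. In the cells with at least 100 chain UMIs, H2-DMa reached 657 CPM in the photoconversion library and 1130 CPM in the control library, against 339 CPM in the cells without a chain UMI in either. H2-DMb1 reached 352 CPM in those photoconversion cells and 630 CPM in those control cells, the latter from 29 UMIs. In photoconversion cells with 0, 1 to 9 and 10 to 99 chain UMIs, H2-DMb1 was at 154, 165 and 230 CPM. The corresponding control cells had 173, 166 and 101 CPM. H2-Oa reached 504 CPM in the 12 photoconversion cells, which held 86 of the library's 263 H2-Oa UMIs, and 196 CPM in the 6 control cells, which held 9 of 264. H2-Oa was at 79.2 CPM in photoconversion cells and 111 CPM in control cells that had no chain UMI. With 1 to 9 and 10 to 99 chain UMIs it was at 114 and 135 CPM in photoconversion cells, and at 102 and 116 CPM in control cells. Below 100 chain UMIs, H2-DMb1 and H2-Oa thus did not rise steadily with the chains in control cells. Of the 6 Ciita UMIs in the photoconversion library, 5 were in the 2 cells richest in chain UMIs, and the single Ciita UMI of the control library was in the cell ranked 4 there.

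The rich cells were described by their markers. The richest photoconversion cell had 20144 UMIs, of which 556 were chain UMIs and 444 Cd74, with 93 Cst7, 238 Apoe and 5 P2ry12 UMIs. The richest control cell had 5442 UMIs, of which 414 were chain UMIs and 339 Cd74, with 2 Cst7, 250 Apoe and 3 P2ry12 UMIs. Their state genes differed: the first had many Cst7 UMIs, and the second had nearly none. The median depth of the rich cells was 15016 UMIs in the photoconversion library and 4792.5 in the control library, above the medians over all kept cells. Doublets were not removed, and their part in these cells was not tested.

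All 12 rich photoconversion cells and all 6 rich control cells had at least 3 microglia marker UMIs. These markers made up a median of 1.15% of UMIs in the 12 and 0.682% in the 6, against 1.63% and 2.30% over all kept cells, and they were under 1% in 4 of the 12 and 4 of the 6. The 4 control cells under 1% had 0 to 2 Cst7 UMIs and held 414, 246, 176 and 129 of the 1963 chain UMIs of that library. A large part of the control chain UMIs thus lay in cells with little microglia marker RNA. The 4 photoconversion cells under 1% had 93, 104, 1 and 0 Cst7 UMIs and held 556, 414, 197 and 142 of the 3697 chain UMIs there. Border macrophage markers summed to 19 UMIs over all photoconversion cells, with 4 of 8 markers at 0, and to 98 UMIs over all control cells, with only Lyve1 at 0. Of those, 2 and 7 UMIs were in the rich cells. Monocyte markers summed to 32 UMIs in photoconversion cells and 199 in control cells, of which 18 and 11 were in the rich cells, 14 of the 18 in 1 photoconversion cell. Dendritic cell markers summed to 12 and 19 UMIs, with Flt3, Xcr1, Clec9a and Ccr7 at 0 in both libraries, and 1 and 3 of these UMIs were in the rich cells. All 3 dendritic cell marker UMIs of the rich control cells were in the richest, in which microglia markers made up 0.276% of UMIs. Oligodendrocyte markers summed to 199 UMIs in photoconversion cells and 336 in control cells, with Mog and Cldn11 at 0 in both. Cells with at least 3 of them, 22 and 33, held 1052 of the 3697 chain UMIs in the photoconversion library and 57 of the 1963 in the control library. B cell markers summed to 26 and 70 UMIs, with Cd79a, Ms4a1, Pax5 and Ly6d at 0 in both, and T or NK cell markers to 1 and 5 UMIs. The part of such cells in the rich cells was not tested. Without every cell holding at least 3 UMIs of another type's markers, 59 in the photoconversion library (1656 chain UMIs) and 73 in the control library (889 chain UMIs), the ratio of summed chains and Cd74 was 2.92 (2.77 to 3.07). It was 3.47 (3.29 to 3.65) in cells with at least 1% microglia marker UMIs, 238 in the photoconversion library and 439 in the control library.

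**Figure D4:**
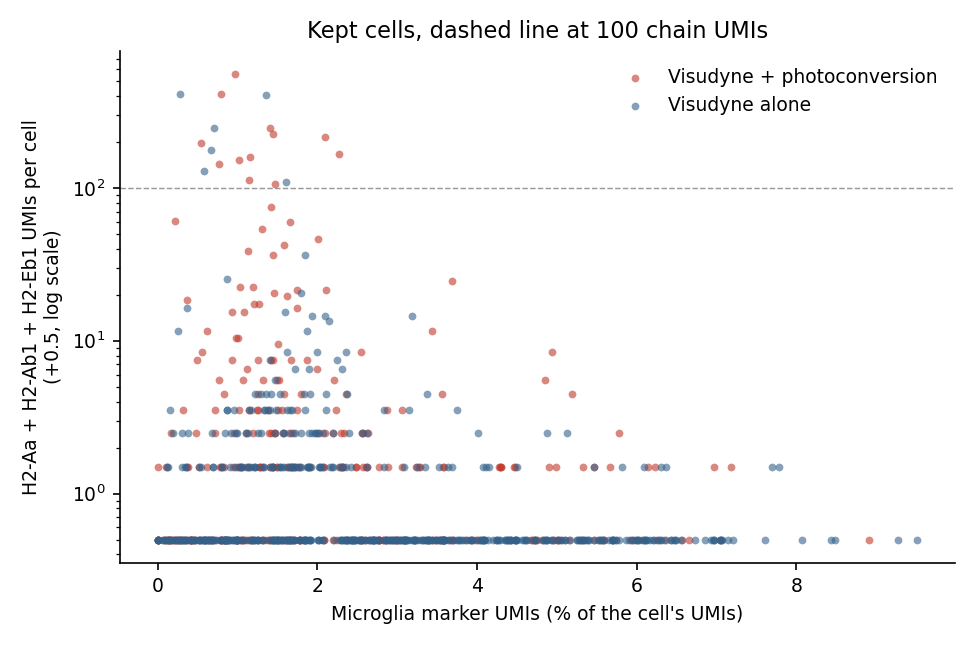
Chain UMIs per kept cell (y axis, +0.5, log scale) against the share of UMIs from 10 microglia markers (x axis, %), 317 photoconversion cells in red and 555 control cells in blue. Cells above the dashed line at 100 chain UMIs number 12 and 6 and lie below 2.5% microglia marker UMIs, with 4 of each below 1%.

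The relation to cell state was read from Cst7, a cystatin raised in disease-associated microglia, Apoe, the lipid carrier raised in the same state, and P2ry12, the purinergic receptor of homeostatic microglia. Summed over kept cells, Cst7 was at 3634 CPM in the photoconversion library and 3029 CPM in the control library, Apoe at 11257 and 8571 CPM and P2ry12 at 1577 and 1905 CPM. Their ratios of 1.20, 1.31 and 0.828 were nearer to 1 than those of Cd74 and the chains. Cells thinned to 1000 UMIs were grouped by each state gene as having none, fewer than the median of the positive cells, or at least that median.

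At 1000 UMIs chain detection was higher with more Cst7 in both libraries. Over 20 draws, a chain UMI was present on average in 20.3% of photoconversion cells with no Cst7 UMI, 27.8% of those below the median and 35.7% of those at or above it. In control cells the shares were 7.63%, 9.36% and 24.1%. Upper minus empty group, the difference was 15.5 percentage points on average in photoconversion cells, with draws from 4.15 to 25.9, and 16.4 points in control cells, with draws from 11.1 to 23.4. The draw used for the other values at equal depth gave 25.9 points (13.7 to 37.5) in photoconversion cells, the highest of the 20, and 17.3 points (8.42 to 26.6) in control cells. The upper group was also deeper before thinning, at a median of 9280.5 UMIs against 2965 in photoconversion cells and 7194.5 against 2913 in control cells, and the part of depth in the relation was not tested. Thinned to 500 UMIs, the difference was 3.10 points in photoconversion cells, so its size there depended on the depth.

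The amount of chain RNA did not follow detection. In that draw photoconversion cells with no Cst7 had 2.11 chain UMIs per 1000, against 1.62 in the upper group, and control cells had 1.35 against 0.565. Few rich cells set these means: in the cells without Cst7, 1 cell gave 66 of 234 chain UMIs in the photoconversion library and 1 cell gave 73 of 268 in the control library.

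For Apoe the libraries differed in the empty group. A chain UMI was present on average in 27.1% of photoconversion cells with no Apoe UMI, 19.0% below the median and 34.4% at or above it, and in 3.83%, 8.14% and 23.7% of control cells. The difference between upper and empty group averaged 7.31 points in photoconversion cells, with draws from -2.13 to 15.1, and 19.9 points in control cells, with draws from 12.4 to 25.9. Thinned to 500 UMIs it was 7.20 points in control cells. The photoconversion group without Apoe held about 48.3 cells per draw, so its share is known to within a wide interval, 12.7 to 41.2% in the draw used for the other values. In that draw the upper Apoe group was deeper before thinning, at a median of 6459 UMIs against 3380.5 in the empty group of photoconversion cells. In control cells the medians were 5112 and 2827.5 UMIs. The part of depth was not tested, nor whether the libraries differed in this relation.

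With P2ry12 the order was the opposite. A chain UMI was present on average in 32.3% of photoconversion cells with no P2ry12 UMI, 29.98% below the median and 21.9% at or above it, and in 21.1%, 13.9% and 5.83% of control cells. The difference averaged -10.4 points in photoconversion cells, with draws from -17.5 to -0.20, and -15.3 points in control cells, with draws from -22.1 to -9.30. Here the empty group was the deeper one before thinning. In the draw used for the other values its median was 5231 UMIs against 2991 in the upper group of photoconversion cells. In control cells the medians were 4580 and 2313 UMIs, and the part of depth was not tested. In each of the 9 groups the mean share was higher in the photoconversion library. The groups divide the same cells anew for each state gene, and over all cells the means were 27.9% and 12.8%. They are thus no separate support for that difference.

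**Figure D5:**
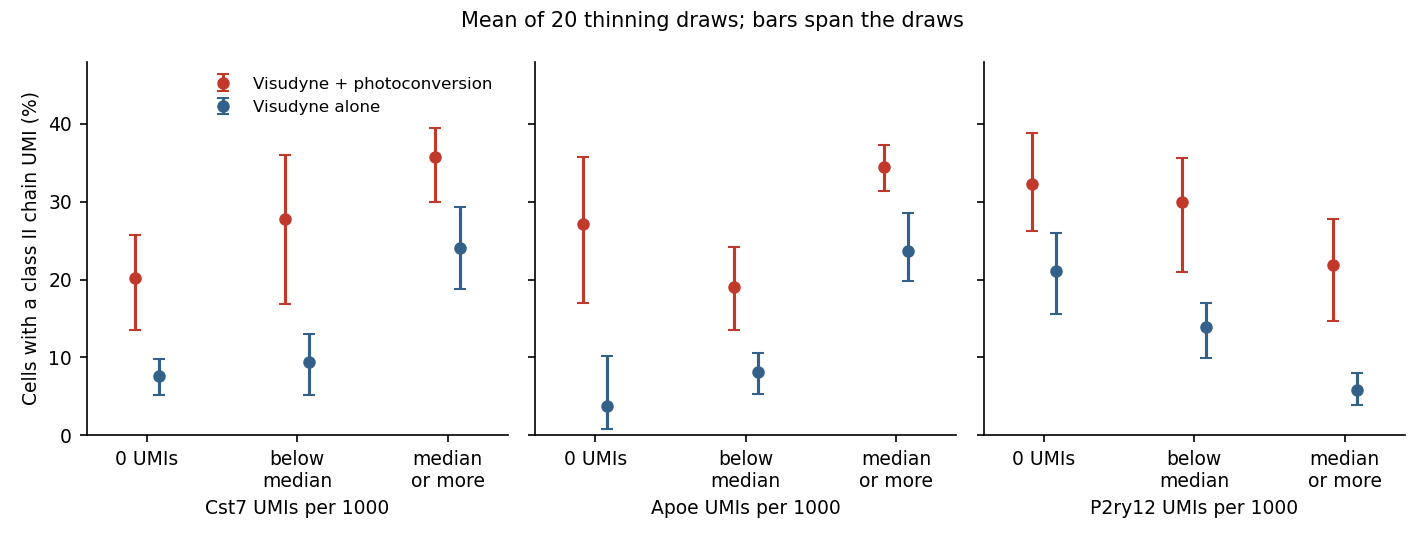
Share of cells with a UMI of H2-Aa, H2-Ab1 or H2-Eb1 (y axis, %) by the UMIs of Cst7, Apoe and P2ry12 per 1000 (x axis, 3 groups each), photoconversion library in red left of the control library in blue. Points are means and bars span the lowest and highest of 20 thinning draws. Shares are highest in the upper groups of Cst7 and Apoe and in the empty group of P2ry12.

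As a description across cells, rho between the chain sum and Cst7 was 0.25 in photoconversion cells and 0.20 in control cells, with Apoe 0.20 and 0.23, and with P2ry12 -0.14 and -0.18. Cd74 had rho of 0.22 and 0.23 with Cst7, of 0.23 and 0.34 with Apoe, and of -0.12 and -0.31 with P2ry12. The rho of H2-DMa lay between -0.02 and 0.07 with all of them in both libraries. By the smaller of both libraries' rho with the chain sum, over 1815 genes seen in at least 5% of thinned cells of each library, Cd74 came first at 0.37. Cst7, Apoe, Cd52 and Lyz2 came next, between 0.20 and 0.17. Such weak values in sparse counts are no finding, and 2 of the 5 names the rule gave remained with another thinning.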

How the data were processed

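Single-cell libraries were made on the 10x Genomics Chromium and sequenced on a NextSeq, per the labels' protocols. Deposited by the authors were unnormalized UMI counts for each gene in each barcode, produced with bcl2fastq and Cell Ranger 3.0.2 on mm10, per the submitters' processing notes and the file headers. From these counts, CPM were computed over the kept cells of each library. Intervals (95%) were exact: Poisson for a sum, conditional binomial for a ratio, Clopper-Pearson for a share. UMIs collapse duplicate reads, but the intervals cover counting error only and not which cells or mice entered a library. With 1 library per group, made of 3 pooled mice, no test was made. A gene was called past the fold at a CPM ratio of 1.5 or 1/1.5, with 0.5 counts added and at least 20 UMIs over both libraries. Cells were thinned without replacement to 1000 UMIs, which left out 45 photoconversion and 116 control cells. The libraries held 2038693 UMIs (photoconversion) and 2672902 UMIs (control) in all, of which kept cells held 1816177 and 2422711. Genes were located by identifier in GENCODE vM21 (GRCm38, the assembly named mm10). Named genes were all 9 members, Cst7, Apoe, P2ry12, genes of the pathway lists and the 5 other genes most like the chain sum. The values of 3 genes are not reported here. The members and lists were chosen with earlier results of these data known. Computation used Python 3.11.15, scipy 1.17.1 and edgeR 4.0.16 (TMM scaling only), and the ratio and thinning steps were tested on simulated data.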

Additional observations from a re-analysis of the deposited data

Results flagged for a closer look

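Class II RNA was also present in barcodes that the filter on detected genes left out, 1608 in the photoconversion library and 1340 in the control library. There the chain sum was 240 UMIs (1934 CPM) in the photoconversion library and 114 UMIs (777 CPM) in the control library, a ratio of 2.49 (1.99 to 3.14). Cd74 had 170 UMIs (1370 CPM) in the photoconversion library and 81 UMIs (552 CPM) in the control library, a ratio of 2.48 (1.90 to 3.28). Both ratios lie close to those of the kept cells, whose chain sum was at 2036 CPM in the photoconversion library and 810 CPM in the control library. The difference between libraries was thus also seen in barcodes that the comparisons do not use. These barcodes come from the same 2 libraries and may hold RNA of the same cells, so they are no independent measurement. Per barcode at most 6 chain UMIs were seen in the photoconversion library and 7 in the control library. H2-DMa was at 314 CPM in these photoconversion barcodes and 266 CPM in these control barcodes. Whether these UMIs come from small cells or from free RNA was not tested.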

How the results depend on the processing

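Of 302 values under alternative settings, 198 stayed within the counting interval of the main value or within 1.5 times the main count, 100 moved further and 4 reversed. The ratio of summed chains and Cd74 stayed above 1.5 in all 13 alternatives. Changes of cells gave 2.26 at 5% mitochondrial UMIs at most, 2.41 without the 5% deepest cells, 2.92 without cells holding other cell type markers, 2.96 without the richest cell and 3.88 without the 10 richest. Chosen after seeing the data, leaving out cells under 1% microglia marker UMIs gave 3.47 and leaving out cells with at least 100 chain UMIs 2.87. Changes of scale gave 2.84 with median-of-ratios, 2.84 with TMM, 2.55 with cells weighed equally and 2.17 at 1000 UMIs. H2-DMb2 reversed to 0.995 with equal weights and 0.646 at 1000 UMIs, and H2-Oa to 0.914 and 0.706, and the cause was not tested. The value of H2-DMb2 at 1000 UMIs rests on 2 UMIs in photoconversion cells and 5 in control cells. For H2-Oa the draw gave the highest control share of the 20, 13.4% of cells against a mean of 9.73%. In photoconversion cells it gave 9.56% against a mean of 9.91%. At 500 UMIs 19.4% of photoconversion and 8.40% of control cells had a chain UMI, against 53.6% and 28.8% unthinned. Cd74-positive cells with a chain UMI were 77.4% and 60.5% unthinned. The 5 richest cells held 44.8% of photoconversion and 69.8% of control chain UMIs, and the 20 richest 83.8% and 86.2%. At 500 UMIs the Cst7 difference in photoconversion cells was 3.10 points and the Apoe difference in control cells 7.20 points. Of the 5 genes most like the chain sum, 0 remained at 500 UMIs, 2 with another seed and 3 with the mean of 20 draws. No paired analysis was possible because each group has 1 library. Depth limits Ciita and H2-DMb2 most.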
